A study of Mus musculus with 17 samples.

Results

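The IL-1 family genes and the inflammasome genes described here were 10 genes taken by symbol, of 31091 gene IDs in the count table. They were Il1a, Il1b, Il18, Il1rn, Il18bp, Nlrp3, Nlrp1b, Pycard, Casp1 and Gsdmd, and all 10 passed the filter on low counts in every fit. RNA was sequenced from mouse conventional dendritic cells (cDCs) of 2 kinds, cDC1s and cDC2s, after 6 h of culture, to ask how debris of dying tumor cells changes their gene expression. The 17 samples formed 6 groups, with 3 samples each except for cDC2s with RIPK3 medium, which had 2. Between 16095159 and 21645289 reads were counted per sample.

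The cDC1s were sorted as XCR1+ CD8α+ SIRPα- cells and the cDC2s as SIRPα+ CD11b+ XCR1- cells. Every group came from spleens of female C57BL/6JRj mice of 8 weeks that carried a tumor of B16 cells making FLT3L, a growth factor that expands cDCs, for 10 to 14 days. At least a pair of mice was pooled per experiment. All cultures held GM-CSF at 2 ng/mL and unspun medium of TC-1 tumor cells that had received cumate for 24 h. The WT groups received medium of live TC-1 cells. The BimS groups received apoptotic debris of TC-1-iBimS cells, a clonal line in which cumate switches on the BH3-only protein BimS. The RIPK3 groups received necroptotic debris of TC-1-iRIPK3 cells, a clonal line in which cumate switches on a self-oligomerizing form of the kinase RIPK3. Each kind of debris came from its own line, and the line and the kind of death cannot be told apart. The labels do not say that samples of a group came from separate mice, so p-values measure the spread between these samples.

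IL-1β and IL-18 are cytokines that cells store as inactive precursors. An inflammasome is a protein complex in which a sensor such as NLRP3 or NLRP1B binds the adaptor ASC, encoded by Pycard, and activates caspase-1, encoded by Casp1. Caspase-1 cuts both precursors and also gasdermin D, encoded by Gsdmd, which then opens pores in the cell membrane. IL-1α acts through the same receptor as IL-1β. The IL-1 receptor antagonist, encoded by Il1rn, blocks that receptor, and the IL-18 binding protein, encoded by Il18bp, captures free IL-18. The measurements are of RNA, so they say nothing of cleavage or release of these proteins.

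The 10 genes lie on 5 chromosomes in the GRCm39 build. On the minus strand of chromosome 2, Il1a (ENSMUSG00000027399) spans chr2:129140291-129152098 and Il1b (ENSMUSG00000027398) spans chr2:129206490-129213059. Il1rn (ENSMUSG00000026981) lies on the plus strand of the same chromosome at chr2:24226865-24241506. Il18 (ENSMUSG00000039217, chr9:50466081-50493633) and Casp1 (ENSMUSG00000025888, chr9:5298508-5307290) are on the plus strand of chromosome 9. Il18bp (ENSMUSG00000070427, chr7:101638490-101668206) and Pycard (ENSMUSG00000030793, chr7:127588558-127593039) are on the minus strand of chromosome 7. Nlrp3 (ENSMUSG00000032691, chr11:59432394-59457782, plus strand) and Nlrp1b (ENSMUSG00000070390, chr11:71043928-71121559, minus strand) are on chromosome 11, and Gsdmd (ENSMUSG00000022575, chr15:75733974-75739257, plus strand) is on chromosome 15.

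The promoters below are shown for Il1b, the member with the highest level, and for Il1rn, Nlrp1b and Il18, the members with the largest differences between cDC1s and cDC2s. Each is the 250 bases before the start of the gene's canonical transcript in GENCODE M39 (GRCm39), 5′ to 3′ on the gene's strand, and capitals mark matches to the motifs named after them.
Il1b promoter, chr2:129213060-129213309, minus strand: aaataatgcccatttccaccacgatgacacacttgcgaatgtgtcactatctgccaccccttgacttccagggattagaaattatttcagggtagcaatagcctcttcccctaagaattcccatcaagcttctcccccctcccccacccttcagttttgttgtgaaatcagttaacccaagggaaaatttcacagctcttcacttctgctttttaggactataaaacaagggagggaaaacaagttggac
Il1rn promoter, chr2:24226615-24226864, plus strand: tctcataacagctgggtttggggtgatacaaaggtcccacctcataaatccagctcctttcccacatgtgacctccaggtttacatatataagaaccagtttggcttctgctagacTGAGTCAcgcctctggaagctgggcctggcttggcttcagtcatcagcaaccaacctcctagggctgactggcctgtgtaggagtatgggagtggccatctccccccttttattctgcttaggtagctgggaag
Nlrp1b promoter, chr11:71092283-71092532, minus strand: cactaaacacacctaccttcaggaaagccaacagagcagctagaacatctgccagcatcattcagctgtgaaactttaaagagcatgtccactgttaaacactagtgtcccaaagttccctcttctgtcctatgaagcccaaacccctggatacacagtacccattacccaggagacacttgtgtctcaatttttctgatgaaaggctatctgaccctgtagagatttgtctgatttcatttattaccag
Il18 promoter, chr9:50476424-50476673, plus strand: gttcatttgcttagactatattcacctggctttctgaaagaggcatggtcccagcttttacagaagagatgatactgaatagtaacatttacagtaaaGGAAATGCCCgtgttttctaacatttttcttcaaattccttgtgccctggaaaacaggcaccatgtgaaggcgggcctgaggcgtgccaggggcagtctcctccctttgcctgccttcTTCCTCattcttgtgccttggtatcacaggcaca

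Letters of 4 motifs were searched on both strands in these windows. The NF-kB letters GGGNNTTTCC were found in 1.47% of 21770 promoters of protein-coding genes and in 1 of the 10 members, Il18, at 152 to 143 bases before the start. The AP-1 letters TGANTCA were in 6.17% of promoters and in 1 member, Il1rn, at 134 to 128 bases before the start. The PU.1 letters GAGGAA were in 22.9% of promoters and in 5 members, which were Il1a, Il18, Nlrp3, Pycard and Casp1. The letters GAAANNGAAA of the interferon-stimulated response element were in 3.32% of promoters and in no member. The windows of Il1b and Nlrp1b held none of the 4. A match describes letters only, not a bound site.

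Both cell types carried their markers. The summed level of 8 cDC1 markers was 1425 to 1743 CPM, which are read counts scaled to library size, in cDC1s and 99.0 to 131 CPM in cDC2s. The summed level of 8 cDC2 markers was 282 to 373 CPM in cDC2s and 2.75 to 4.53 CPM in cDC1s. Single markers moved between media. In cDC1s 5 of 8 cDC1 markers were called with BimS and 6 of 8 with RIPK3 medium against WT medium, with Xcr1 and Clec9a higher and Irf8, Itgae and Wdfy4 lower in both. Irf8, a transcription factor of cDC1s, went from a mean of 310 CPM with WT to 185 and 177 CPM with BimS and RIPK3 medium, and Itgae from 44.2 to 32.2 and 24.8 CPM. In cDC2s 2 and 4 of 8 cDC2 markers were called, among them Irf4, a transcription factor of cDC2s, which went from 36.9 to 16.5 and 12.9 CPM. Neutrophils and monocytes are rich in Il1b RNA, so their markers were read too. The 10 neutrophil markers summed to at most 0.346 CPM in cDC1s. In cDC2s they summed to 2.15 to 4.35 CPM with WT, 0.974 to 2.13 with BimS and 1.46 to 2.42 with RIPK3 medium, with Ly6g at 0 counts in 16 of 17 samples and S100a8 at 0 to 2 counts. Other neutrophil markers were above 0 in cDC2s with WT medium. S100a9 was at 0.154, 0.285 and 1.40 CPM there, the last being 26 counts in WT sample 3, and at most 0.152 CPM with BimS medium. Ngp had 6 to 8 counts in the 3 WT samples of cDC2s and 0 in the 3 BimS samples. Csf3r was at 1.32 ± 0.218 CPM (SD, n = 3) with WT and 0.928 ± 0.332 CPM (n = 3) with BimS medium. Of 6 neutrophil markers tested in cDC2s, 1 was called lower with BimS medium, and 5 had a value below 0 (list median −1.17). With RIPK3 medium 0 were called and 4 had a value below 0 (list median −0.77). Between the cell types with WT medium, all 4 tested were called lower in cDC1s (list median −4.80), beside 23.7% of all genes. The 8 monocyte markers summed to 169 to 291 CPM in cDC1s and 283 to 421 CPM in cDC2s. Most of the monocyte sum came from Cd14, Plac8 and Ms4a4c, while the defining markers Ly6c2 and Chil3 reached at most 1.18 and 0.0636 CPM. Lyz2, Fcgr1 and Ccr2 were above these, at 21.8 to 31.7 CPM for Lyz2 in cDC1s and up to 17.6 and 10.5 CPM for Fcgr1 and Ccr2 in cDC2s. Cd14, which encodes a co-receptor for lipopolysaccharide, had mean levels with WT, BimS and RIPK3 medium in the same order as Il1b in both cell types. They were 33.6 ± 3.48, 46.4 ± 7.02 and 61.2 ± 10.6 CPM in cDC2s, called higher with BimS (log2 fold change 0.46, adjusted p = 0.0233) and with RIPK3 medium (0.87, adjusted p = 0.000227). In cDC1s they were 137 ± 32.1, 96.0 ± 24.1 and 156 ± 36.5 CPM, with no call between media in the fit without a block. Each BimS sample of cDC1s was, however, below the WT sample of the same number in Cd14. Other monocyte markers were called in both directions. In cDC1s with RIPK3 medium Ccr2 was higher (0.70, adjusted p = 0.00343) and Fcgr1 and Ms4a4c lower (−2.12 and −0.56, adjusted p = 7.15e-10 and 0.00853) than with WT medium, and Fcgr1 was also lower there with BimS medium (−1.03, adjusted p = 6.8e-05). In cDC2s Plac8 was lower with BimS medium (−0.48, adjusted p = 0.0279), and Fcgr1 and Ms4a4c were lower with RIPK3 medium (−0.65 and −0.45, adjusted p = 0.0128 and 0.0137). The 9 macrophage markers summed to 9.89 to 20.0 CPM with WT medium and 50.5 to 113 CPM with debris, but to 3.46 to 12.6 CPM in all groups without Spic. Besides Spic, Slc40a1, the iron exporter ferroportin, was called higher with both kinds of debris in both cell types, from means of 0.245 (cDC1s) and 0.353 CPM (cDC2s) with WT medium to 4.00 and 3.67 with BimS and 2.56 and 3.18 with RIPK3 medium. No other macrophage marker was called higher. With BimS medium 6 of 8 tested in cDC1s and 7 of 9 in cDC2s had a value below 0 (list medians −1.21 and −0.95), of which C1qc in cDC1s passed (−1.61, adjusted p = 0.0343). With RIPK3 medium 3 of 8 in cDC1s and 6 of 9 in cDC2s, Spic and Slc40a1 included, had a value above 0 (list medians −0.20 and 0.22), and no other marker passed. The 9 epithelial and adherent tumor cell markers, read because the debris is of tumor cells, summed to 9.57 to 10.6 CPM with WT, 10.8 to 10.9 with BimS and 11.5 to 12.7 with RIPK3 medium in cDC1s, where Cald1 was called higher with RIPK3 medium (1.80, adjusted p = 0.0163). In cDC2s they summed to 4.15 to 7.46, 3.09 to 4.69 and 4.43 to 5.66 CPM with no call between media. Of the B cell, T and NK cell and plasmacytoid dendritic cell lists, Cd3g in cDC2s with BimS medium was the gene called between media (−2.15, adjusted p = 0.0341). The cDC2 WT sample 3 was the highest of the 8 cDC2 samples in C1qa, C1qb, C1qc, Cd5l, S100a9 and Cald1, at 1.13, 1.88, 1.77, 2.20, 1.40 and 1.99 CPM. It was also the highest in Ngp, Ltf, Camp and Tpm2, but not in the other markers of these lists. Adgre1 was at 4.03 CPM there and 5.13 in RIPK3 sample 2, and Mertk at 0.0537 there and 0.285 in WT sample 2. Vcam1 was at 0.805 CPM there and 0.890 in RIPK3 sample 1, and Krt8 and Krt18 had no counts there. The part of other cells in the results was not tested, and in these bulk samples fewer cells of a type and less RNA per cell cannot be told apart.

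Il1b was among the most abundant RNAs of both cell types (plot of the level of each gene in each sample). It ranked 15 to 19 among all genes in cDC1 samples and 5 to 10 in cDC2 samples, and it took 0.377% ± 0.00501 of the counted reads of cDC1s with WT medium and 0.540% ± 0.0643 of those of cDC2s (mean ± SD, n = 3). Per kilobase of its canonical transcript, Il1b stood at 2690 CPM per kb in cDC1s with WT medium and 3810 in cDC2s. The next members were far lower on this scale of levels. In cDC1s with WT medium, the order after Il1b was Gsdmd at 33.6 CPM per kb, Nlrp3 at 16.9, Casp1 at 13.4, Il18 at 11.8 and Nlrp1b at 5.64. Il18bp, Pycard, Il1rn and Il1a were all under 1 CPM per kb there. In cDC2s with WT medium, the order after Il1b was Gsdmd at 36.9 CPM per kb, Il1rn at 31.7, Casp1 at 28.8, Nlrp3 at 22.9, Il18 at 2.86 and Il18bp at 1.45. Nlrp1b, Pycard and Il1a were under 1 CPM per kb in cDC2s. Il1rn thus held the third place in cDC2s and the ninth place in cDC1s. Over the length of all annotated exons it held the fourth place in cDC2s, with Nlrp3 above it at 22.7 CPM per kb against 14.2. Il18bp and Pycard in cDC1s (0.909 ± 0.163 and 0.835 ± 0.0734 CPM per kb) did not differ beyond their spread over the canonical transcript. Over all annotated exons Il18bp was the lower of this pair, at 0.307 CPM per kb against 0.813.

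**Figure D1:**
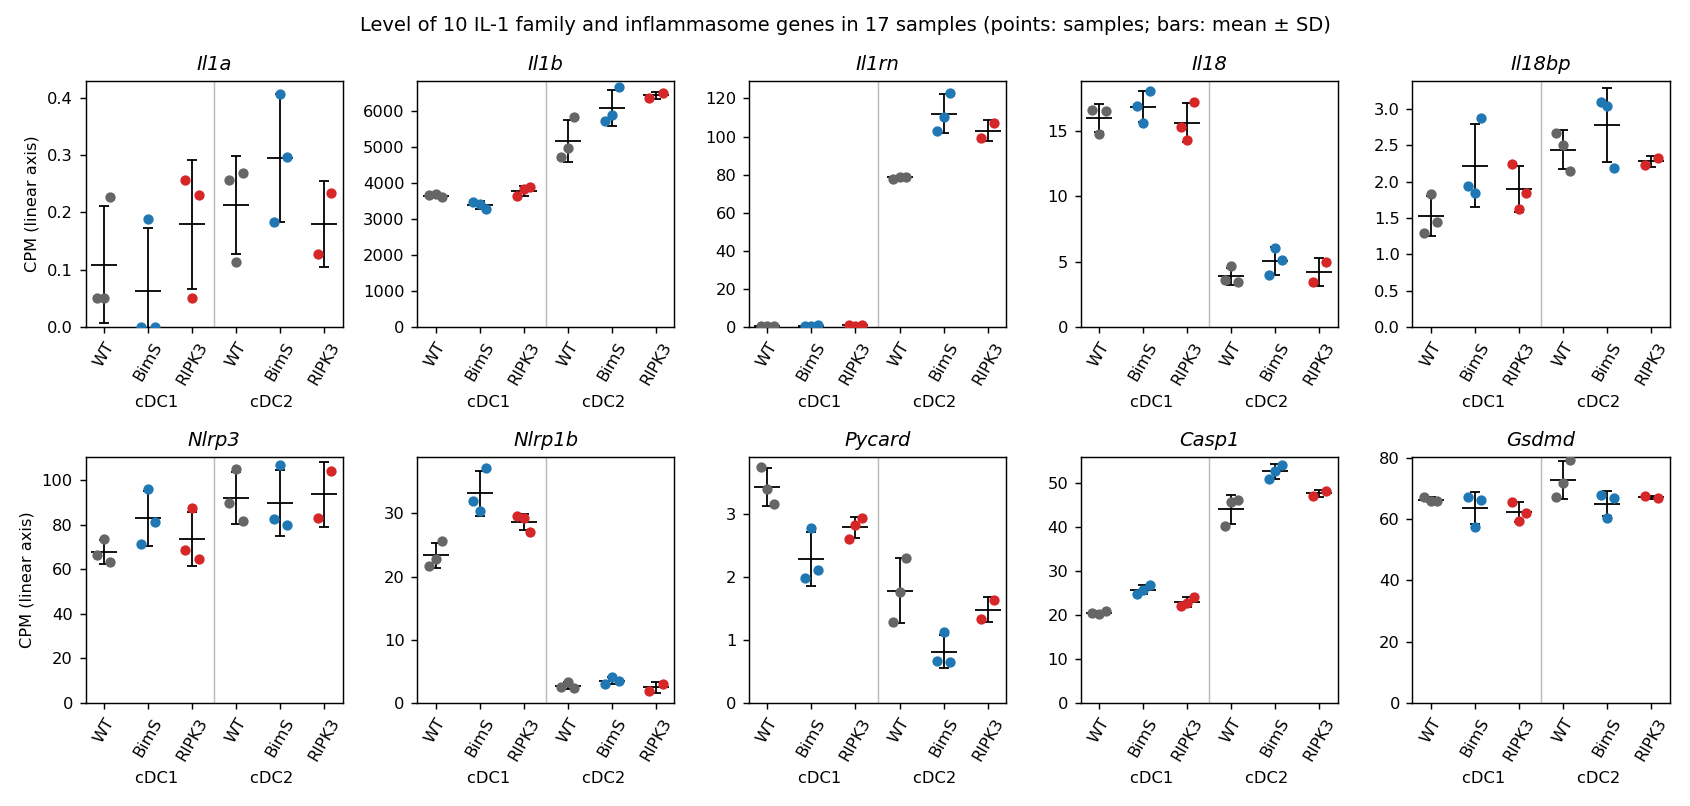
Level of each of the 10 genes in CPM (linear axis from 0, one panel per gene) in cDC1s and cDC2s with WT, BimS or RIPK3 medium. Points are samples and bars are the mean ± SD of 3 samples (2 for cDC2s with RIPK3 medium). Il1rn lies between 0.459 and 1.27 CPM in all cDC1 samples and between 77.8 and 123 CPM in all cDC2 samples, and Nlrp1b shows the opposite order.

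The first comparison asked how the 2 kinds of cDC differ in medium of live cells, without debris. With WT medium, cDC1s had 127-fold less Il1rn RNA than cDC2s, 8.56-fold more Nlrp1b and 4.09-fold more Il18. Casp1 was 2.16-fold lower in cDC1s, and Il1b 1.43-fold lower. Of the 10 members 8 passed an adjusted p of 0.05, 3 higher and 5 lower in cDC1s, and 46.2% of all genes tested did so, 22.5% higher and 23.7% lower. The median log2 difference (cDC1 over cDC2) was −0.48 for the members and 0.01 for all genes tested.

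Of the cytokines, Il1b was at 3654, 3692 and 3596 CPM in the 3 cDC1 samples with WT medium and at 4707, 4957 and 5837 CPM in the 3 cDC2 samples. The groups did not overlap, and the log2 difference was −0.51 (SE 0.0697, adjusted p = 3.88e-07). Il18 was at 16.6, 14.7 and 16.5 CPM in cDC1s and at 3.59, 4.62 and 3.44 CPM in cDC2s. Every cDC1 sample thus lay above every cDC2 sample, with a log2 difference of 2.03 (SE 0.145, adjusted p = 9.83e-13). Bco2, a carotenoid-cleaving enzyme gene that overlaps the Il18 locus on the opposite strand without shared exon bases, had a like order, with 36.5 ± 1.44 CPM in cDC1s and 5.87 ± 1.19 CPM in cDC2s with WT medium. Il1a had 0 to 8 counts in each of the 17 samples, which is at or near the floor of 3 counts. It had 1, 1 and 5 counts in cDC1s with WT medium and 5, 2 and 5 in cDC2s, so no difference in Il1a was detectable at this depth.

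Of the antagonists, Il1rn had 11, 10 and 17 counts in the 3 cDC1 samples with WT medium and 1517, 1382 and 1468 counts in the 3 cDC2 samples. The levels were 0.609 ± 0.138 and 78.5 ± 0.617 CPM, and the log2 difference was −6.99 (SE 0.155, adjusted p = 2e-24). Il1rn was therefore detected in every cDC1 sample, but by few reads. The cDC2 sort markers Sirpa and Itgam were also low there, at 1.44 and 0.685 CPM on average against 191 and 47.2 CPM in cDC2s. Clec10a was at 0.0640 and 21.8 CPM. Whether the Il1rn reads of cDC1 samples came from a few cDC2s was not tested. Il18bp was at 1.30, 1.83 and 1.44 CPM in cDC1s and 2.67, 2.51 and 2.15 CPM in cDC2s. Its log2 difference was −0.69 (SE 0.229, adjusted p = 0.014). Il18bp shares 446 exon bases with Numa1, which lies on the opposite strand and had levels of 294 ± 6.06 CPM (cDC1s) and 288 ± 51.6 CPM (cDC2s) with WT medium. Whether the counting used strand is not given in the sources used here, so reads of the low Il18bp and of Numa1 cannot be told apart.

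The sensors went opposite ways. Nlrp1b, an inflammasome sensor whose triggers depend on the allele a mouse strain carries, was at 21.7, 22.7 and 25.6 CPM in the 3 cDC1 samples and at 2.46, 3.31 and 2.36 CPM in the 3 cDC2 samples. The groups lay far apart, with a log2 difference of 3.10 (SE 0.141, adjusted p = 3.19e-17). Its near-identical neighbor Nlrp1a, with which reads could be shared, had 2.10 ± 0.206 CPM in the first and 1.90 ± 0.476 CPM in the second cell type. Nlrp3, whose protein senses membrane damage and ion loss, was at 66.6, 73.5 and 63.2 CPM in cDC1s and 89.7, 105 and 81.8 CPM in cDC2s. The groups did not overlap, but the log2 difference of −0.45 (SE 0.151, adjusted p = 0.0238) was small.

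Of the shared machinery, Casp1 was at 20.5, 20.3 and 20.8 CPM in cDC1s with WT medium and at 40.3, 45.6 and 46.1 CPM in cDC2s, a log2 difference of −1.11 (SE 0.0754, adjusted p = 3.22e-13). Pycard was low in both, at 3.76, 3.41 and 3.16 CPM in cDC1s and 1.28, 1.77 and 2.31 CPM in cDC2s. Its log2 difference was 0.94 (SE 0.215, adjusted p = 0.00061). Gsdmd was at 66.0 to 67.3 CPM in cDC1s and 67.3 to 79.4 CPM in cDC2s, with a log2 difference of −0.14 (95% interval −0.29 to 0.00, adjusted p = 0.12). Gsdmd passed without cDC2 WT sample 1 (adjusted p = 0.0411). The Nlrp3 difference did not pass without cDC1 WT sample 1 or 3 (adjusted p = 0.0674 and 0.0975) or cDC2 WT sample 1 or 2 (0.0597 and 0.103), and that of Il18bp did not without cDC1 WT sample 1 or 3 (0.0681 and 0.052) or cDC2 WT sample 1 (0.0564). With limma neither passed (Nlrp3 −0.29, adjusted p = 0.236, and Il18bp −0.52, adjusted p = 0.0921).

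**Figure D2:**
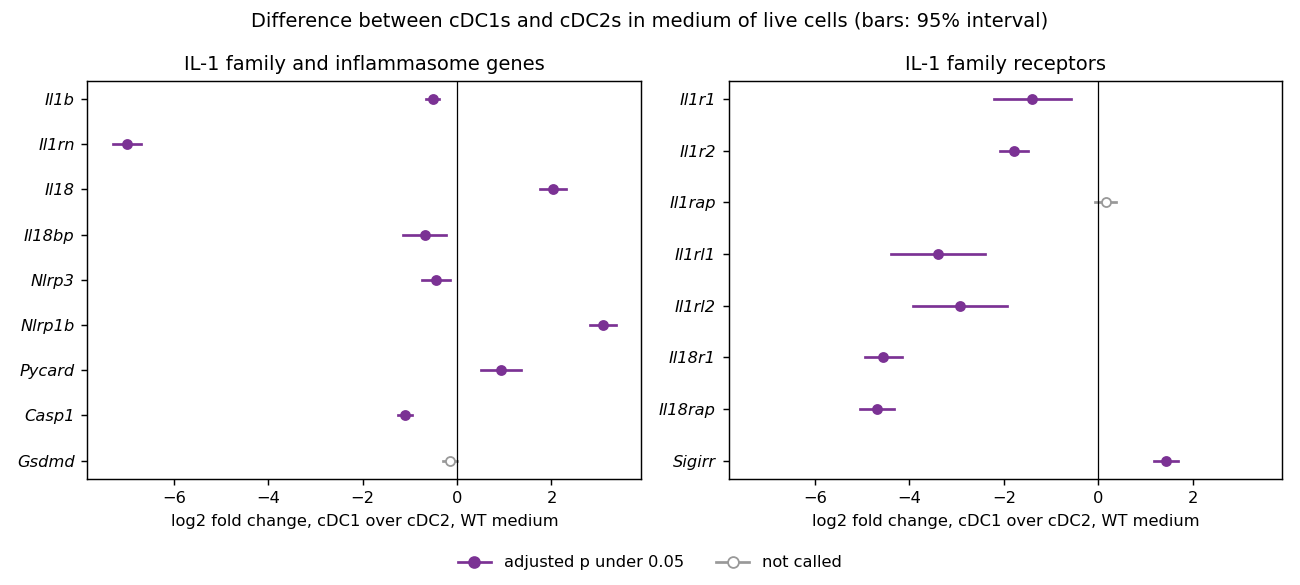
Log2 difference of cDC1s over cDC2s with WT medium (horizontal axis) for 9 of the 10 members, leaving out Il1a, which is at the floor of counts (left), and for 8 receptors of the IL-1 family (right). Points are estimates, bars are 95% intervals, and filled points passed an adjusted p of 0.05. Il1rn at −6.99 and Nlrp1b at 3.10 lie at the ends of the left panel, and Il18rap at −4.69 and Sigirr at 1.43 at the ends of the right one.

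The balance of agonist and antagonist RNA differed accordingly between the cell types. With WT medium there were 6626, 7259 and 4689 Il1b counts per Il1rn count in the 3 cDC1 samples and 60.5, 62.8 and 74.1 in the 3 cDC2 samples. With BimS medium the ratio was 7559, 5190 and 2889 in cDC1s and 55.7, 53.6 and 54.3 in cDC2s. With RIPK3 medium it was 3089, 5801 and 3075 in cDC1s and 64.1 and 60.5 in cDC2s. All 9 cDC1 samples thus lay above all 8 cDC2 samples, and in cDC2s the 3 BimS samples lay below the other 5. The cDC1 values rest on 9 to 23 Il1rn counts per sample, and whether these came from a few cDC2s was not tested.

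**Figure D3:**
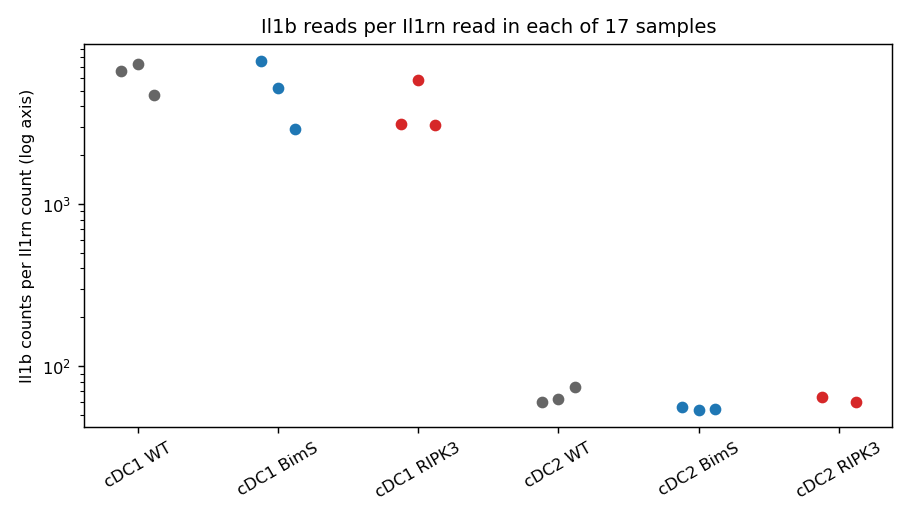
Counts of Il1b per count of Il1rn (log axis) in each of the 17 samples, by group. The cDC1 samples lie between 2889 and 7559 and the cDC2 samples between 53.6 and 74.1.

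The receptors of the family differed in the same comparison. Of 8 receptor genes tested with WT medium, 6 were lower in cDC1s, 1 was higher and 1 did not pass. Il18r1 and Il18rap, the chains of the IL-18 receptor, were at 0.601 ± 0.132 and 4.56 ± 0.918 CPM in cDC1s and at 14.1 ± 0.498 and 117 ± 17.4 CPM in cDC2s. Their log2 differences were −4.55 (adjusted p = 1.52e-17) and −4.69 (adjusted p = 2.56e-12). The decoy receptor Il1r2, which binds IL-1 without signaling, was at 63.7 ± 5.98 and 218 ± 34.2 CPM (log2 difference −1.79, adjusted p = 2.3e-07). The signaling receptor Il1r1 was near the floor, with 4 to 9 counts in cDC1s and 10 to 22 in cDC2s. Sigirr, an inhibitory receptor of the family, was the gene that was higher in cDC1s, at 14.2 ± 0.569 against 5.25 ± 0.527 CPM (log2 difference 1.43, adjusted p = 1.03e-10). Il18 was thus higher in the cell type with the lower level of both chains of its receptor.

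Among the other genes of the sensor list, Nlrc4, part of the inflammasome for bacterial flagellin, had levels of 0.638 ± 0.235 CPM (cDC1s) and 16.2 ± 0.600 CPM (cDC2s) with WT medium. Mefv, which encodes pyrin, was at 56.1 ± 4.59 and 346 ± 27.5 CPM. Aim2, the sensor for cytosolic DNA, had the opposite order, at 107 to 119 and 54.3 to 62.0 CPM. The log2 differences were −4.64 (adjusted p = 1.75e-18), −2.64 (adjusted p = 5.9e-21) and 0.93 (adjusted p = 3.58e-12). Over 5 lists of other genes of the pathway, 33 of 45 tested genes (73.3%) passed, 10 higher and 23 lower in cDC1s, beside 46.2% of all genes (22.5% higher and 23.7% lower).

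The next comparison asked what apoptotic debris changed in cDC1s. Nlrp1b rose 1.42-fold and Casp1 1.25-fold, while Pycard fell to 0.671 of its level with WT medium. Of the 10 members 3 passed, 2 higher and 1 lower, and 13.2% of all genes tested did, 7.31% higher and 5.89% lower. The study picked Casp1 and Nlrp1 genes from these libraries, so their direction is no independent evidence. The median log2 fold change was 0.18 for the members and 0.00 for all genes tested.

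Nlrp1b was at 32.0, 30.4 and 37.2 CPM in the 3 BimS samples of cDC1s, all above the 21.7 to 25.6 CPM with WT medium, or 0.51 on the log2 scale (SE 0.0799, adjusted p = 9.35e-06). Casp1 was at 24.7, 25.6 and 26.8 CPM, all above the 20.3 to 20.8 CPM with WT medium, or 0.33 on the log2 scale (SE 0.0753, adjusted p = 0.00189). With unnormalized limma the Casp1 call was lost (0.29, adjusted p = 0.146). Pycard was at 1.99, 2.78 and 2.11 CPM, all below the 3.16 to 3.76 CPM with WT medium, or −0.58 on the log2 scale (SE 0.186, adjusted p = 0.0336). The Pycard samples held 39 to 75 counts each. The Pycard call was lost without cDC1 WT sample 1 (adjusted p = 0.148) or 2 (0.0766), without cDC1 BimS sample 1 (0.156) or 3 (0.13), with DESeq2 (0.0639) and with limma (0.0578).

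Il1b did not pass in this comparison, with 3472, 3425 and 3273 CPM after apoptotic debris, all below the WT samples, and a log2 fold change of −0.11 (95% interval −0.19 to −0.02, adjusted p = 0.114). It passed without cDC1 RIPK3 sample 3 (adjusted p = 0.024). With the replicate number as a block, 5 members passed where 17.9% of all genes did, among them Il1b (log2 fold change −0.10, adjusted p = 0.0177) and Nlrp3 (0.29, adjusted p = 2.73e-06). Nlrp3 was higher in each BimS sample than in the WT sample of the same number, by 0.10, 0.39 and 0.37 on the log2 scale, although the groups overlapped at 63.2 to 73.5 and 71.3 to 96.1 CPM. Il1a, Il1rn, Il18, Il18bp and Gsdmd passed in neither fit. Il18 at 15.6 to 18.0 CPM and Gsdmd at 57.6 to 67.2 CPM had the narrowest intervals of these 5, −0.10 to 0.26 and −0.18 to 0.06 on the log2 scale. Il18bp, at 1.84 to 2.88 CPM against 1.30 to 1.83, did not overlap but had an interval from 0.07 to 1.01 (adjusted p = 0.156).

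Necroptotic debris changed 1 member in cDC1s. Nlrp1b was at 29.6, 29.2 and 27.1 CPM, all above the WT samples, or 0.29 on the log2 scale (SE 0.0813, adjusted p = 0.00934). Of all genes tested 16.5% passed in this comparison, so 1 of 10 members is no more than the background share. The call was lost without cDC1 WT sample 1 (log2 fold change 0.24, adjusted p = 0.0788) and with limma (0.17, adjusted p = 0.376). Casp1 was at 21.9, 22.8 and 24.1 CPM, above all WT samples, but its log2 fold change of 0.16 (95% interval 0.01 to 0.31) did not pass (adjusted p = 0.191). Il1b was at 3634, 3821 and 3897 CPM, which overlapped the WT samples (log2 fold change 0.05, 95% interval −0.04 to 0.13, adjusted p = 0.555). Pycard at 2.61 to 2.94 CPM lay below the WT samples without passing (log2 fold change −0.30, adjusted p = 0.311).

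In the direct comparison of necroptotic with apoptotic debris in cDC1s, 1 member passed, and 4.15% of all genes did. Il1b was 3634 to 3897 CPM with RIPK3 medium and 3273 to 3472 CPM with BimS medium, without overlap, or 0.15 on the log2 scale (SE 0.0430, adjusted p = 0.033). This small difference was lost without cDC1 BimS sample 2 (adjusted p = 0.0706) or 3 (0.204), without cDC1 RIPK3 sample 2 (0.112), and with limma (0.07, adjusted p = 0.835). With the replicate block 3 members passed where 8.87% of all genes did. They were Il1b (adjusted p = 0.000563), Nlrp3 (log2 fold change −0.18, adjusted p = 0.0117) and Nlrp1b (−0.21, adjusted p = 0.0281). Nlrp1b and Casp1 were lower with necroptotic than with apoptotic debris in every sample, by −0.22 for Nlrp1b (adjusted p = 0.13) and −0.17 for Casp1 (adjusted p = 0.241) on the log2 scale in the fit without the block.

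In cDC2s, apoptotic debris raised Il1rn 1.42-fold and lowered Pycard 2.15-fold. Of the 10 members 2 passed, 1 higher and 1 lower, and 7.01% of all genes tested did, 3.80% higher and 3.21% lower. Il1rn was at 103, 110 and 123 CPM in the 3 BimS samples, all above the 77.8 to 78.9 CPM with WT medium, or 0.51 on the log2 scale (SE 0.0849, adjusted p = 0.000507). Pycard was at 0.669, 1.12 and 0.651 CPM, all below the 1.28 to 2.31 CPM with WT medium, or −1.11 on the log2 scale (SE 0.317, adjusted p = 0.0378). The BimS samples held only 11 to 22 Pycard counts. The Pycard call was lost without cDC2 WT sample 2 (adjusted p = 0.11) or 3 (0.151), cDC2 BimS sample 1 (0.153) or 3 (0.127), and cDC2 RIPK3 sample 1 (0.0583) or 2 (0.0604), and with DESeq2 (0.0636).

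Il1b was at 5728, 5890 and 6660 CPM in cDC2s with apoptotic debris, and the lowest of these was under the highest WT sample at 5837 CPM. Its log2 fold change of 0.24 (95% interval 0.07 to 0.40) did not pass (adjusted p = 0.121). Each BimS sample was, however, above the WT sample of the same number, by 0.28, 0.25 and 0.19 on the log2 scale. With the replicate block 5 members passed where 21.3% of all genes did, and Il1b was among them (log2 fold change 0.24, adjusted p = 1.34e-09). The others that the block added were Casp1 (0.26, adjusted p = 0.000112) and Gsdmd (−0.16, adjusted p = 0.0118). Casp1, at 50.9, 52.8 and 54.2 CPM against 40.3 to 46.1, did not overlap the WT samples and had an adjusted p of 0.0914 without the block. Without cDC2 WT sample 3, Il1b (log2 fold change 0.33, adjusted p = 0.00508) and Casp1 (0.29, adjusted p = 0.0491) passed without a block. That sample had the highest Il1b and Casp1 of the WT group, so leaving it out raises both fold changes and is no separate support. With no filter on low counts Il1b passed too (0.25, adjusted p = 0.0188).

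Necroptotic debris also raised Il1rn in cDC2s. It was at 99.3 and 107 CPM in the 2 RIPK3 samples, above all WT samples, or 0.40 on the log2 scale (SE 0.0942, adjusted p = 0.0103). This was 1 of 10 members, where 7.21% of all genes passed. The call was lost without cDC2 RIPK3 sample 1 (adjusted p = 0.0573) or 2 (0.177), in fits where the lone sample left was taken to vary like the other groups, and with limma (0.22, adjusted p = 0.427). Il1b was at 6366 and 6495 CPM, above all WT samples, and just missed the threshold (log2 fold change 0.32, SE 0.0958, adjusted p = 0.0501). It passed with the replicate block (log2 fold change 0.40, adjusted p = 2.84e-19), where 2 members and 21.4% of all genes did. It also passed without cDC2 WT sample 3 (0.41, adjusted p = 0.00114) or cDC2 BimS sample 3 (0.32, adjusted p = 0.0441), with DESeq2 (0.34, adjusted p = 0.0264), with RLE size factors (0.34, adjusted p = 0.0328) and with no filter (0.33, adjusted p = 0.00271). Leaving out cDC2 WT sample 3, the WT sample with the highest Il1b, raises the fold change and is no separate support. Nlrp3, at 83.3 and 104 CPM, and Gsdmd, at 67.6 and 66.9 CPM, did not pass, with 95% intervals of −0.26 to 0.30 and −0.30 to 0.08 on the log2 scale.

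Between necroptotic and apoptotic debris in cDC2s, edgeR's quasi-likelihood test called none of the 10 members, and 0.379% of all genes. At an unadjusted p under 0.05 there was 1 member, Pycard (log2 fold change 0.85, adjusted p = 0.531), while DESeq2 and limma called 0. With the replicate block Il1b passed (log2 fold change 0.16, adjusted p = 0.00197), where 14.3% of all genes did. Il1rn, at 99.3 and 107 CPM against 103 to 123 CPM, had an interval of −0.30 to 0.08 on the log2 scale.

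**Figure D4:**
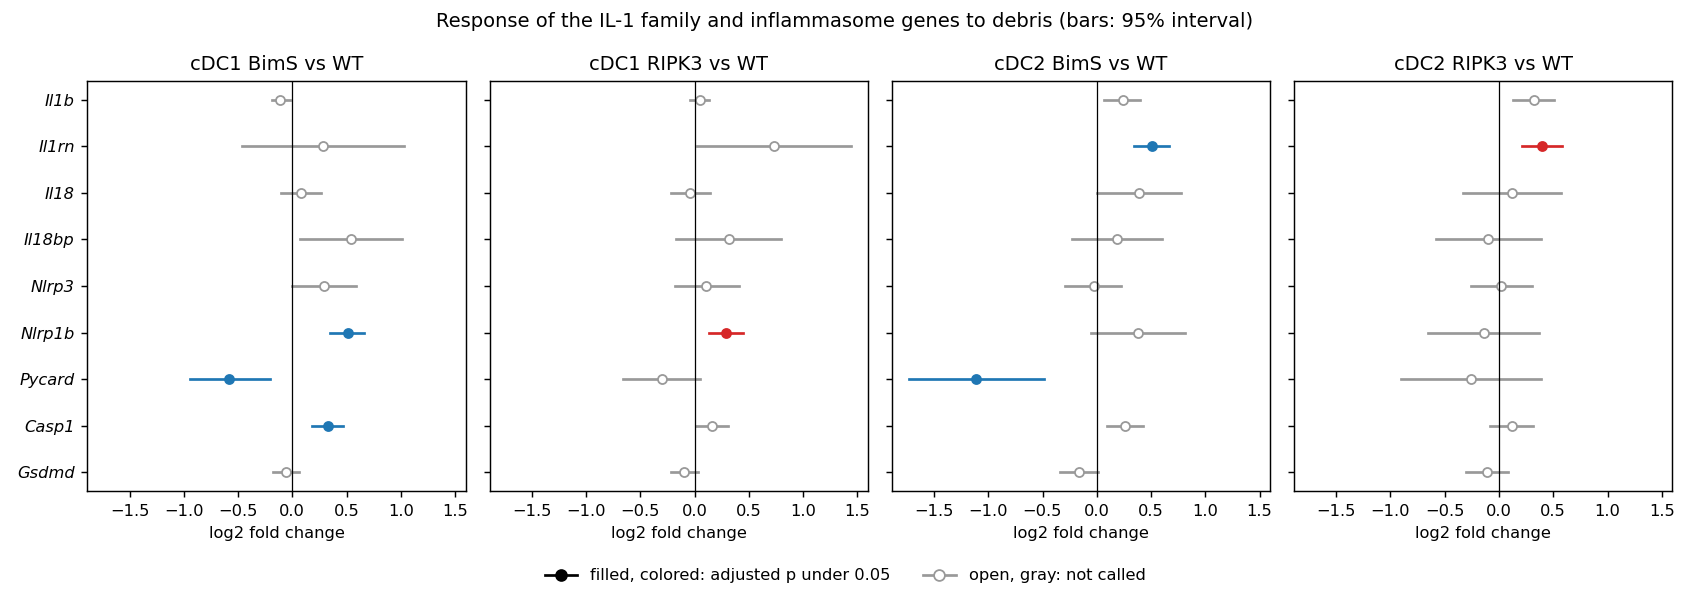
Log2 fold change of 9 members, leaving out Il1a, with BimS or RIPK3 medium over WT medium (horizontal axis) in cDC1s and cDC2s. Points are estimates from the fits without a block, bars are 95% intervals, and filled points passed an adjusted p of 0.05. Nlrp1b passed in both cDC1 panels at 0.51 and 0.29, and Il1rn in both cDC2 panels at 0.51 and 0.40. The panels of a cell type share their WT samples.

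The responses of the cell types were compared by a test of the difference itself (cDC1 minus cDC2). For apoptotic debris edgeR called 0 of 10 members and 0.870% of all genes, for necroptotic debris 0 and 1.14%, and for necroptotic against apoptotic debris 0 and 0.0314%. At an unadjusted p under 0.05 there were 1, 1 and 0 members, DESeq2 called 1, 0 and 0, and limma called none in any. The member at an unadjusted p under 0.05 was Il1b each time, with a difference of −0.34 (SE 0.0984, adjusted p = 0.114) for apoptotic debris and −0.28 (SE 0.104, adjusted p = 0.326) for necroptotic debris. Without cDC2 WT sample 3 these became −0.45 (adjusted p = 0.00107) and −0.38 (adjusted p = 0.00961). That sample had the highest Il1b of the cDC2 WT group, so a larger difference without it is no separate support. Both cell types were sorted from cultured CD11c+ cells, so a cDC1 and a cDC2 sample of 1 number may share a culture, which the labels do not state. With that number as a block, Il1b passed for apoptotic debris (−0.34, adjusted p = 0.00789) and for necroptotic debris (−0.32, adjusted p = 0.0286), and Nlrp3 passed for apoptotic debris (0.32, adjusted p = 0.031), where 2.32% and 2.35% of all genes did. The Nlrp1b response, called in cDC1s and not in cDC2s, differed by 0.12 (95% interval −0.29 to 0.53) for apoptotic debris, and the Il1rn response by −0.23 (−0.89 to 0.43). A difference between cell types in these 2 responses was therefore not shown.

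Ordered by its level, Il1b ran from cDC1s with BimS medium (3390 ± 104 CPM) over cDC1s with WT medium (3647 ± 48.1) and RIPK3 medium (3784 ± 135) to cDC2s with WT medium (5167 ± 594), BimS medium (6092 ± 498) and RIPK3 medium (6431 ± 91.0 CPM, n = 2, others n = 3). Within each cell type, no pair of neighbors in this order passed the test in the fits without a block. Il1bos, an antisense transcript that shares 95 exon bases with Il1b, stood at 5.29 to 9.44 CPM on average in the 6 groups, far under Il1b.

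The rest of the pathway was read from 5 lists with 52 genes in the table, of which 46 were tested in each cell type, in the fits without a block. Of these, 8 passed with apoptotic debris in cDC1s (17.4%, 5 higher and 3 lower, beside 13.2% of all genes), 11 with necroptotic debris in cDC1s (23.9%, 3 higher and 8 lower, beside 16.5%), 8 with apoptotic debris in cDC2s (17.4%, 4 and 4, beside 7.01%) and 9 with necroptotic debris in cDC2s (19.6%, 6 and 3, beside 7.21%). In the direct comparison of necroptotic with apoptotic debris, 5 passed in cDC1s (10.9%, beside 4.15% of all genes) and 0 in cDC2s (beside 0.379%). The genes that passed in all 4 comparisons of debris with WT medium were Il36g, Gsdme, Ninj1 and Trim30a, 4 of the 19 that passed in any comparison between media.

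Il36g, a cytokine of the family that is active on epithelia and dendritic cells, rose in cDC2s from 2.55 ± 0.713 CPM with WT medium to 8.94 ± 1.25 CPM with apoptotic debris (log2 fold change 1.80, adjusted p = 2.95e-06). It was at 5.10 ± 0.703 CPM with necroptotic debris (0.99, adjusted p = 0.00759). The study lists Il36g among the genes upregulated in cDC2s with apoptotic debris, from these libraries, so that direction is no independent evidence. In cDC1s it rested on 1 to 2 counts per sample with WT medium, 6 to 11 with BimS medium and 8 to 12 with RIPK3 medium (adjusted p = 0.00898 and 0.00303), so no fold is given. The 4 other ligands in the table, Il33, Il36a, Il36b and Il36rn, did not pass the filter on low counts.

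Gsdme, a pore-forming gasdermin that caspase-3 cuts, rose in cDC1s from 3.54 ± 0.328 CPM with WT medium to 8.15 ± 0.568 with apoptotic and 8.18 ± 0.403 with necroptotic debris. On the log2 scale these were rises of 1.21 (adjusted p = 1.17e-08) and 1.20 (adjusted p = 1.06e-08). In cDC2s Gsdme rose from 1.09 ± 0.487 to 2.45 ± 0.582 and 2.79 ± 0.343 CPM (1.18, adjusted p = 0.0152, and 1.36, adjusted p = 0.00951). Gsdmd, by contrast, passed in none of the 4 fits without a block. Ninj1, which ruptures the membrane at the end of lytic death, rose from 123 ± 2.27 to 195 ± 8.57 and 207 ± 7.01 CPM in cDC1s (adjusted p = 7.57e-13 and 3.19e-14). In cDC2s Ninj1 rose from 258 ± 32.6 to 354 ± 30.9 and 384 ± 4.40 CPM (adjusted p = 0.00292 and 0.000769). Trim30a, an interferon-induced gene known to restrain NLRP3, fell in all 4 comparisons. It went from 274 ± 18.5 to 167 ± 14.8 and 140 ± 12.9 CPM in cDC1s and from 127 ± 20.9 to 61.3 ± 9.16 and 43.0 ± 7.48 CPM in cDC2s, with adjusted p between 1.39e-07 and 0.000284.

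The receptor genes that passed in the fits without a block fell. Il1r2 did not pass, but each debris sample was above the WT sample of the same number in both cell types. Its mean went from 63.7 CPM with WT medium to 74.5 and 77.1 with BimS and RIPK3 medium in cDC1s. In cDC2s it went from 218 to 242 and 306 CPM. Il1rap, the chain shared by the receptors for IL-1, IL-33 and IL-36, fell by 0.59 on the log2 scale in cDC1s with necroptotic debris (adjusted p = 0.000161). In cDC2s Il1rap fell by 0.66 with apoptotic debris (adjusted p = 0.00575) and by 0.91 with necroptotic debris (adjusted p = 0.00134). Sigirr fell by 0.49 in cDC1s with necroptotic debris (adjusted p = 0.000779) and by 0.81 in cDC2s with apoptotic debris (adjusted p = 0.00523). Il18rap fell by 0.71 in cDC1s with necroptotic debris (adjusted p = 0.00284), from 4.56 ± 0.918 to 2.79 ± 0.0908 CPM. It was also lower there than with apoptotic debris, by a log2 fold change of −0.93 (adjusted p = 0.000588).

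Other called genes changed in 1 or 2 comparisons. Panx1, a channel that releases ATP, rose in cDC2s by 0.70 on the log2 scale with apoptotic debris (adjusted p = 0.000215) and by 0.61 with necroptotic debris (adjusted p = 0.00238). P2rx7, the ATP-gated channel upstream of NLRP3, fell in cDC1s with apoptotic debris (log2 fold change −0.47, adjusted p = 0.0309) and rose in cDC2s with necroptotic debris (0.48, adjusted p = 0.0422). Casp4, the caspase that senses cytosolic lipopolysaccharide, fell in cDC1s with necroptotic debris (−0.41, adjusted p = 3.95e-05) and was lower than with apoptotic debris (−0.44, adjusted p = 0.000118). Irak2, a kinase of the IL-1 receptor pathway, rose in cDC2s with necroptotic debris (0.53, adjusted p = 0.000561), from 88.5 ± 5.82 to 128 ± 6.44 CPM.

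With necroptotic debris the responses of Irak2 and P2rx7 differed between the cell types, by −0.55 (adjusted p = 0.0018) and −0.84 (adjusted p = 0.0349) as cDC1 minus cDC2. They were the 2 genes of 45 tested that passed that test, where 1.14% of all genes did. Of the remaining called genes, Irak1 rose in cDC1s with apoptotic debris (0.17, adjusted p = 0.0178). Mefv also rose there (0.29, adjusted p = 0.0016), and in cDC1s it was lower with necroptotic than with apoptotic debris (−0.40, adjusted p = 0.000172). Txnip, which encodes a thioredoxin-binding protein, went the other way in cDC1s: it fell with apoptotic debris (−0.34, adjusted p = 0.000483) and was higher with necroptotic than with apoptotic debris (0.29, adjusted p = 0.00782). Ripk2 was likewise higher with necroptotic than with apoptotic debris in cDC1s (0.46, adjusted p = 0.00444), and fell with apoptotic debris in cDC2s (−0.49, adjusted p = 0.00157). Nek7, Naip2, Naip5 and Naip6 fell in at least 1 comparison with WT medium.

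**Figure D5:**
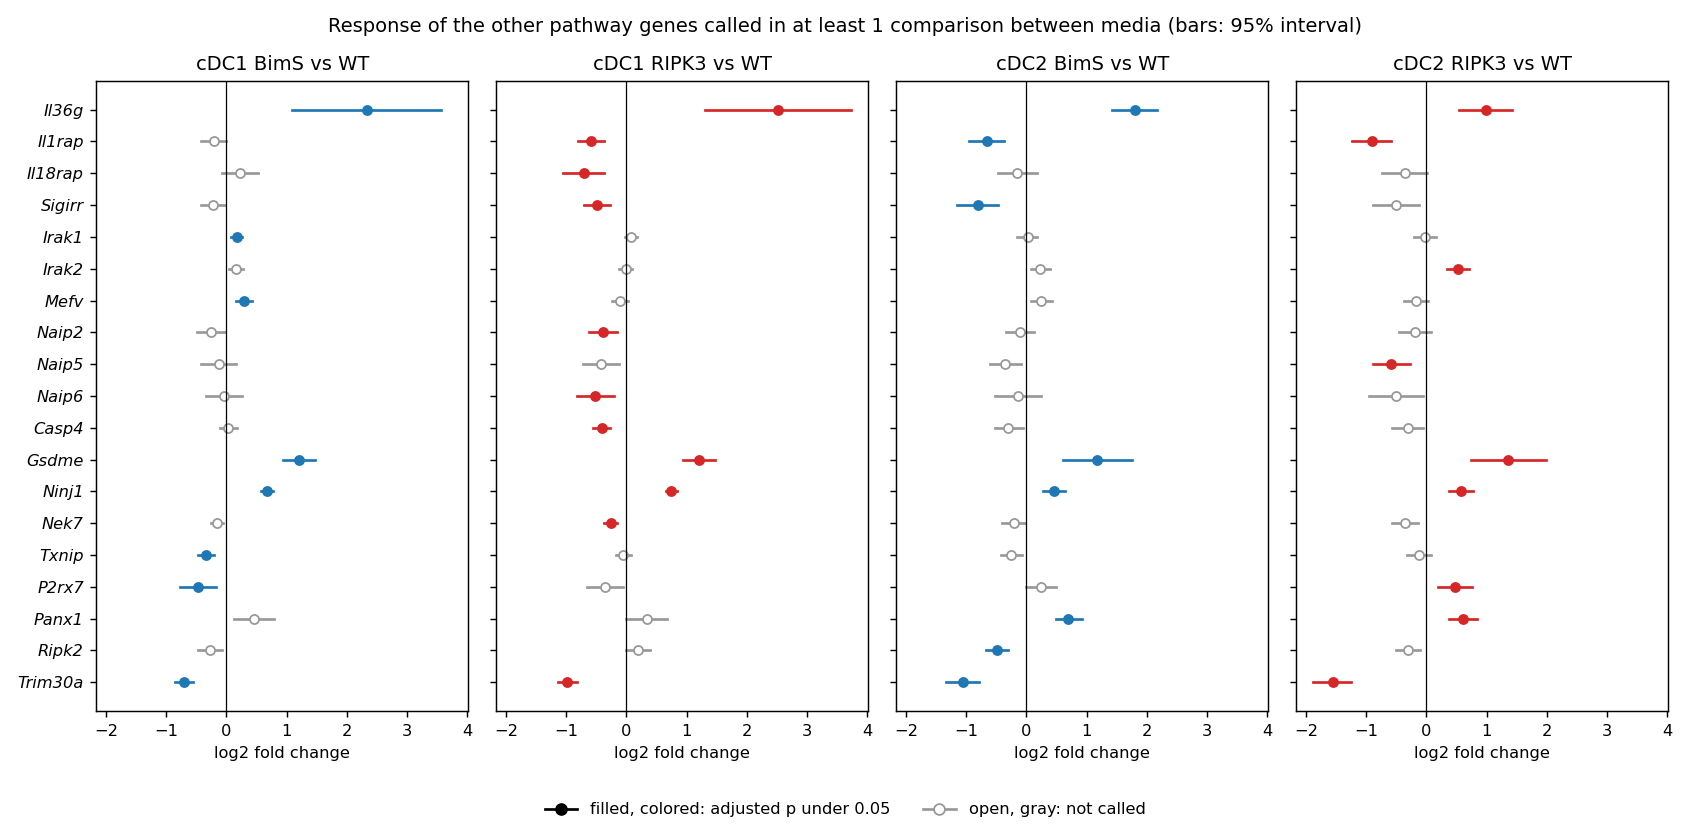
Log2 fold change of the 19 other pathway genes called in at least 1 comparison between media, with BimS or RIPK3 medium over WT medium (horizontal axis) in cDC1s and cDC2s. Points are estimates, bars are 95% intervals, and filled points passed an adjusted p of 0.05. Gsdme lies between 1.18 and 1.36 and Trim30a between −1.56 and −0.71 in the 4 panels, and the Il36g points of cDC1s rest on 1 to 12 counts per sample.

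Over the 17 samples, the genes whose log2 CPM followed a member most closely were listed as a description, since the 17 samples fall into the 2 cell types and share media. They were taken among genes that averaged at least 3 on the log2 CPM scale. For Il1rn they were Ankrd33b, Cd63 and Dgat1 (Pearson r = 0.994 for each). For Nlrp1b they were Phka2, Naaa and Psap (r = 0.996, 0.995 and 0.993), and for Il18 the first was Nlrp1b itself (r = 0.990), followed by Mpeg1 and Ptk2b (0.989 and 0.988). For Casp1 they were 1110032F04Rik, Panx1 and Anxa11 (0.991, 0.989 and 0.988), and for Il1b Map1lc3b, Gdi2 and Gtf2f2 (0.991, 0.988 and 0.986). Pycard was followed by Impdh2, Mcfd2 and Zbed3 (0.957, 0.955 and 0.955). The values were lower for the other members. For Il18bp they were Dop1b, Lilrb4a and Smarca5 (0.889, 0.843 and 0.832), and for Nlrp3 Rrp1b, Cdk5rap1 and Emp1 (0.879, 0.850 and 0.843). For Gsdmd they were Apip, Sumo3 and Armc10 (0.846, 0.827 and 0.805), and for Il1a, which is near the floor, Gm49338, Rnf138 and Wdr55 (0.753, 0.749 and 0.737).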

How the data were processed

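The authors aligned polyA RNA-seq reads with STAR 2.7.10a to GRCm39 and deposited gene counts, which were used as deposited. A deposited table of normalized values was not used. Lines without a gene ID (148, with 0.0258% to 0.0366% of counts) were left out. A gene was tested if at least 50% of the samples in a fit had a count above 0, with edgeR 4.0.16 (quasi-likelihood, TMM, R 4.3.3), two-sided, with Benjamini-Hochberg adjustment over all genes and a threshold of 0.05. The 9 cDC1 and 8 cDC2 samples were fitted separately (19513 and 19239 genes), and all 17 together (19082 genes) for contrasts across cell types. Levels are TMM-scaled CPM over all 17 samples, divided by canonical transcript length for CPM per kb. The scripts were tested on simulated data, where the share of false calls lay above the threshold in the fits within a cell type. Precision is limited by 2 to 3 samples a group.

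Members, lists and tests were chosen with earlier results of these data known. The text names the 10 members, other pathway genes called between media, and the 3 genes most correlated with each member. Other pathway genes and markers named with values were chosen after their values were seen. Same-numbered samples of a cell type deviated together (16 of 16 correlations over 0.1, median 0.355), so the replicate number was used as a block within cell types. Blocked values are given for the members only, and calls of markers and other pathway genes are from the fits without a block. Across cell types 19 of 24 did, and blocked values are given there where they change a call. Alternatives were DESeq2 1.42.0, RLE size factors, filterByExpr, no filter, limma 3.58.1 on log2(count + 1), the block and leaving out each sample. The limma alternative uses the transformation and model the study describes, but calls genes by the adjusted p without its fold limit, so its counts are not the study's. Exon length over all annotated exons was added after seeing the data.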

Additional observations from a re-analysis of the deposited data

Results flagged for a closer look

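Same-numbered samples of 2 media were compared, and 3 responses to debris went one way in every cDC1 pair and the other way in every cDC2 pair. The first was Il1b with apoptotic debris, by −0.07, −0.11 and −0.14 on the log2 scale in cDC1s and by 0.28, 0.25 and 0.19 in cDC2s. Its tested difference (cDC1 minus cDC2) was −0.34 (edgeR, adjusted p = 0.114). Nlrp1b with necroptotic debris was higher in 3 of 3 cDC1 pairs and lower in 2 of 2 cDC2 pairs, with a tested difference of 0.42 (adjusted p = 0.699). Nlrp3 with necroptotic debris had the same signs, with a tested difference of 0.08 (adjusted p = 0.97). None of the 3 passed the test of the difference as fitted. The Il1b difference passed with the replicate number as a block (−0.34, adjusted p = 0.00789), with DESeq2 (−0.36, adjusted p = 0.0337), with no filter (−0.34, adjusted p = 0.0068) and without cDC2 WT sample 3 (−0.45, adjusted p = 0.00107). The block uses the same pairing by number that picked the pattern, so it is no separate support. Neither is leaving out cDC2 WT sample 3, which had the highest Il1b of its group. In total, 30 such patterns were looked at over 10 members.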

How the results depend on the processing

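Of 1770 values of members under the alternatives, 1712 stayed on their side of the threshold, 32 called values no longer passed, 26 others passed, and 0 called values changed sign. Unnormalized limma, which shifted the median of all genes by −0.12 and −0.17 for RIPK3 against WT medium in cDC1s and cDC2s and by 0.16 between cell types, called 1 member for BimS against WT medium in cDC1s and 0 for RIPK3 against WT medium in both cell types and against BimS medium in cDC1s. The subset difference kept 6 calls with limma. DESeq2 called 1 member for BimS against WT medium in cDC2s, 2 for RIPK3 against WT medium in cDC2s and 1 for the difference of the BimS responses (Il1b, −0.36, adjusted p = 0.0337). RLE size factors and no filter each called 2 for RIPK3 against WT medium in cDC2s, and no filter called 1 for the difference of the BimS responses (Il1b, −0.34, adjusted p = 0.0068) and also called Il1b for BimS against WT medium in cDC2s (0.25, adjusted p = 0.0188).

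With the replicate number as a block, the calls were 5 for BimS and 3 for RIPK3 against BimS medium in cDC1s, and 5 for BimS, 2 for RIPK3 and 1 for RIPK3 against BimS medium in cDC2s. The block changed no other call within a cell type. Across cell types not every correlation passed the check. There the block changed no call between the cell types with WT medium. It called 2 members for the difference of the BimS responses (Il1b, adjusted p = 0.00789, and Nlrp3, 0.031) and 1 for RIPK3 (Il1b, 0.0286). Leaving out 1 sample at a time gave 2 to 4 calls for BimS against WT medium, 0 to 1 for RIPK3 against WT and 0 to 1 for RIPK3 against BimS medium in cDC1s. In cDC2s it gave 1 to 3, 0 to 2 and 0 to 0. It gave 6 to 8 calls between cell types and 0 to 1 for the difference of the BimS and of the RIPK3 responses. The loss of single calls with limma and DESeq2 was not traced, so the cause was not tested. Pycard in cDC1s (adjusted p = 0.0639) and cDC2s (0.0636) was not called by DESeq2. Over all annotated exons in place of the canonical transcript, Il1b stood at 1402 CPM per kb in cDC1s and 1986 in cDC2s with WT medium. Depth limits Il1a in all samples, Il1rn in cDC1s and Pycard in cDC2s.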
